A study of Mus musculus with 8 samples.

Results

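Collagen genes were followed across the cell types of tumour-bearing mouse liver. All genes whose symbol has the form Col, a number, a and a number were taken, which gave 44 of the 33696 genes listed in the files. Single-cell mRNA counts came from 6 droplet libraries, 3 knockout and 3 control. Knockout mice carried Ncr1iCre and Nr4a1fl/fl alleles, so that Cre, driven from the gene of the natural killer cell receptor NKp46, removes the floxed part of Nr4a1 in cells that use Ncr1 (chiefly NK cells and related innate lymphocytes). Control mice were Nr4a1fl/fl without Cre, so both groups carry the floxed gene, and the deletion is not directed at any cell class that holds most of the collagen here. All mice were male C57BL/6 animals injected at 8 to 10 weeks of age through the tail vein, at high pressure, with plasmids for CRISPR-Cas9 cutting of Trp53, a c-Myc transposon and the SB13 transposase. This places the tumour-driving changes in hepatocytes, and livers were taken 4 to 5 weeks later. Knockout 3 pooled 2 mice and control 3 pooled 3 mice, while the labels call libraries 1 and 2 biological replicates and do not say which animals lie behind them, so p-values measure the spread between libraries.

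Collagens are extracellular matrix proteins built from chains that wind into a triple helix. Fibril-forming collagens such as types I and III make the fibres of scar tissue, type IV collagen makes the sheet-like network of basement membranes, and multiplexins such as type XVIII sit at basement membrane borders. In the liver, hepatic stellate cells are known as the main source of fibril-forming collagen once activated, and endothelial cells lay down type IV collagen. The endothelium of liver sinusoids, the capillary-like channels between hepatocytes, is known for lacking a continuous basement membrane.

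The promoters of 4 collagens that the results below turn on are shown first, because Col4a1 and Col4a2 encode partner chains read from a shared head-to-head promoter, while Col1a2 encodes a type I chain that was high in stellate cells and Col13a1 was higher in sinusoidal than in other endothelium. Sequences are from RefSeq on GRCm38.p6, an earlier build than the one the counts were made with, and cover 250 bases before to 50 bases after each gene's start, 5′ to 3′ on the gene's own strand. Capitals mark 3 motifs, each searched on both strands. One is the CCAAT box, which on the opposite strand reads ATTGG. The next is the GC box with the letters GGGCGG, which is spelled CCGCCC when it lies on the opposite strand. The last is the TATA box, searched as TATAAA.
Col4a1: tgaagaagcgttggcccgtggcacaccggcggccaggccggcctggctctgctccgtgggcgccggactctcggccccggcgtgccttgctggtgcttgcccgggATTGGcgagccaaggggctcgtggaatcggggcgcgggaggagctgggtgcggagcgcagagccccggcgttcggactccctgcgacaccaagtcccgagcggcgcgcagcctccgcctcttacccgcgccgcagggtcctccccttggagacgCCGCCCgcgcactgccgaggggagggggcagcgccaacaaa
Col4a2: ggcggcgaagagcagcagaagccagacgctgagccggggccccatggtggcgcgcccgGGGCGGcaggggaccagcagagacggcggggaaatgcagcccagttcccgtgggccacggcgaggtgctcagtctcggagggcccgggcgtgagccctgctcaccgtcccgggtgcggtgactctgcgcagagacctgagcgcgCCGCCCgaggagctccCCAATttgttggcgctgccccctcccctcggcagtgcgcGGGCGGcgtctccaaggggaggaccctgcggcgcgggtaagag
Col1a2: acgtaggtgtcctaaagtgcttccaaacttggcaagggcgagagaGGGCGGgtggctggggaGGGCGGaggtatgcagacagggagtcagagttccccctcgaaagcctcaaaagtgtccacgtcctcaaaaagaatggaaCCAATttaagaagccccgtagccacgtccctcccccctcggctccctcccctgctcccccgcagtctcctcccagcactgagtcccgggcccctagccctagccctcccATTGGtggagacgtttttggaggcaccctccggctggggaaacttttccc
Col13a1: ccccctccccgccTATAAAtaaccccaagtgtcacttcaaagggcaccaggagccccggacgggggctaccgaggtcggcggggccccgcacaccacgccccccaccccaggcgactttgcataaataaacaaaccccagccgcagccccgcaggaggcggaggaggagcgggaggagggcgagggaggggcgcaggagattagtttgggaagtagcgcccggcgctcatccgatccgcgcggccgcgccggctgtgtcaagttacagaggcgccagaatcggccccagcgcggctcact
Col4a1 (minus strand) is at chr8:11312777-11313076 and Col4a2 (plus strand) at chr8:11312555-11312854. Their starts lie 21 bases apart and their windows share 78 bases. The Col4a1 window held 1 CCAAT box and 1 GC box, and that of Col4a2 held 1 CCAAT box and 3 GC boxes. Col1a2 (plus strand, chr6:4505368-4505667) had 2 of each, and Col13a1 (minus strand, chr10:61979059-61979358) held neither and had 1 TATA box. Of 32851 promoter windows of the same length, 37.4% held a CCAAT box, 35.7% a GC box and 13.6% a TATA box. Of 38 collagen windows, which belong to the 35 of 44 collagens with an entry, 13, 23 and 5 held them in the same order. These are matches of letters, not sites.

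Counts are UMIs, each tagging 1 captured mRNA molecule, and a level is given as CPM, the UMIs of a gene per 1000000 UMIs of all genes in the same cells. Cells were sorted into classes by marker genes that include no collagen, so collagen levels played no part in the calls. Of 20086 kept cells, 7720 came from knockout and 12366 from control libraries. Stellate cells numbered 0, 1 and 2 in knockouts 1 to 3 and 8, 3 and 26 in controls 1 to 3. Endothelial cells numbered 50, 9 and 408 in knockout and 213, 59 and 453 in control libraries, and tumour-type hepatocytes (hepatocytes with fetal or tumour markers such as Afp) 164, 10 and 619 in knockout and 481, 41 and 397 in control libraries. The other hepatocytes numbered 766 and blood cells 13737. Genes that were no markers fitted the class names: the matrix proteoglycan gene Bgn stood at 1650.4 CPM in stellate cells, the endothelial adhesion gene Pecam1 at 672 in endothelial cells and 8.51 in stellate cells, and Tyrobp, an adaptor of innate immune cells, at 832 in blood cells. Lrat, the vitamin A storing enzyme of quiescent stellate cells, was low at 45.4 CPM in the stellate class. Acta2, smooth muscle actin, stood at 4449 and Rgs5, a mural cell gene, at 2439. The fibroblast genes Lum and Dpt stood at 284 and 181, and stellate cells, pericytes and fibroblasts were not told apart within the class. Lrat, Rgs5, Lum and Dpt are themselves among the stellate markers used, so their levels are no separate check of the class.

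Libraries held 4126740 to 122609032 UMIs in genes. Knockout 2 and control 2 stood apart: the median mitochondrial share of their barcodes with at least 500 UMIs was 75.1% and 27.9%, against 6.7% to 10% in the other libraries, and they kept 134 and 547 cells. Cell classes differed in depth, with a median of 74747 UMIs in tumour-type hepatocytes, 5805.5 in stellate, 3332 in blood and 2581.5 in endothelial cells and 1417 in other hepatocytes. Between 0 and 15 barcodes were shared by any pair of libraries. The floxed gene Nr4a1 stood at 109, 0 and 63.9 CPM in T or NK cells of knockouts and at 76.7, 37.8 and 58.8 in those of controls. Counts at the 3′ end of the transcript, over T and NK cells together, do not check a deletion inside the gene in Ncr1-expressing cells.

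Collagen mRNA was concentrated in few genes and few cell classes. The kept cells held 45861 collagen UMIs among 211549497 UMIs. A UMI was seen for 43 of the 44 collagens (none for Col9a2), 9 collagens had at least 1000 UMIs, 17 had fewer than 100, and the 12 with the most held 89.7%. By class, tumour-type hepatocytes held 33.6% of collagen UMIs, stellate cells 24.8% from 40 cells, endothelial cells 21.0%, cells with markers of more than 1 class 9.70%, mesothelial cells 5.14% and blood cells 4.13%. By level the order was different: the summed level of all collagens was 32211 in stellate cells, 2258 in endothelial cells, 120.4 in tumour-type hepatocytes, 101.0 in other hepatocytes and 28.4 in blood cells.

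**Figure D1:**
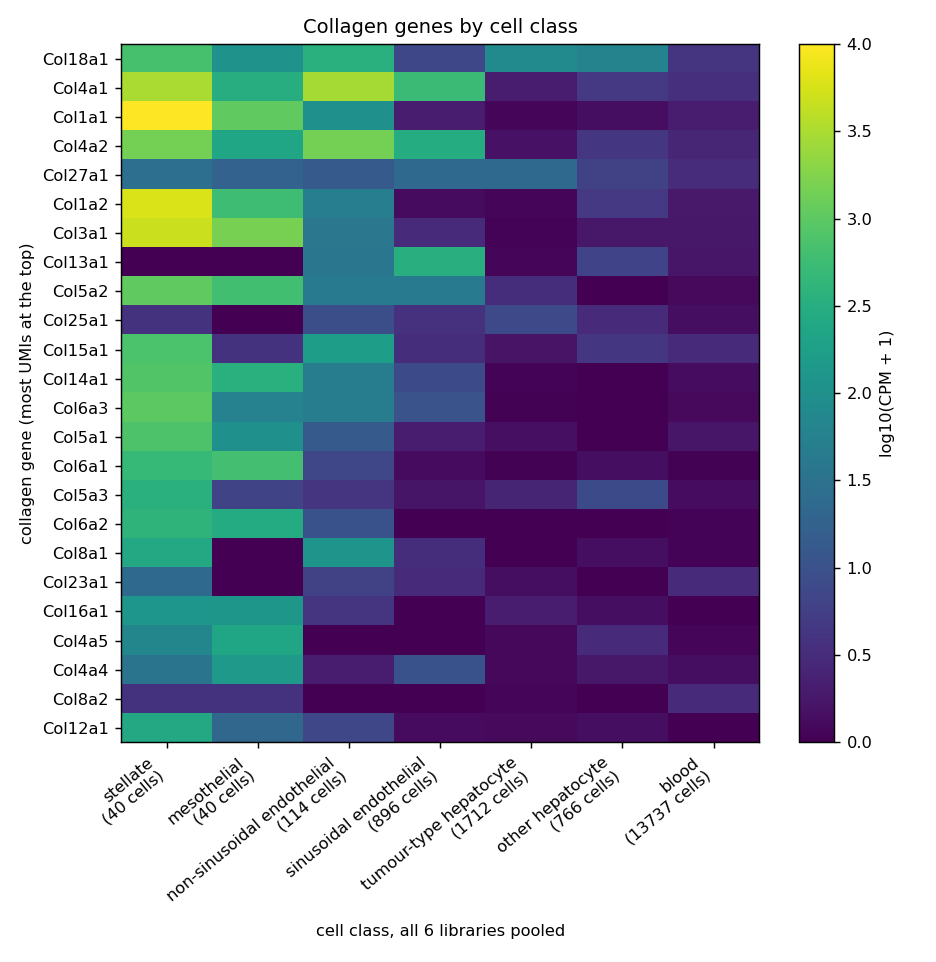
Levels of the 24 collagens with the most UMIs (rows, most at the top) in each cell class (columns, with cell numbers, all 6 libraries pooled), as colour on a log10(CPM + 1) scale. The fibril-forming collagens Col1a1, Col1a2 and Col3a1 are brightest in stellate cells. Col4a1 and Col4a2 are bright in both stellate and endothelial cells, and Col13a1 in endothelial cells. Col18a1 and Col27a1 are the brightest rows of the tumour-type hepatocyte column, and Col18a1 is brighter still in stellate and non-sinusoidal endothelial cells.

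The mix of collagen families differed between stellate cells, endothelial cells and hepatocytes. Fibril-forming collagens made up 70.6% of collagen UMIs in stellate cells, where basement membrane collagens added 14.3%. In endothelial cells 74.0% belonged to basement membrane collagens and 11.4% to transmembrane collagens, which are anchored in the cell membrane. In tumour-type hepatocytes 67.2% belonged to the multiplexins and 22.8% to fibril-forming collagens. Other hepatocytes, with 246 collagen UMIs, had a similar mix, 62.2% and 17.9%. Their Col18a1 averaged 47.4 ± 29.6 CPM and their Col27a1 4.68 ± 1.57 (SD, n = 3). Droplets with at most 100 UMIs held Col18a1 at 77.9 in knockout 3 and 42.5 in control 3. They held Col27a1 at 15.5 in knockout 3 and 8.77 in control 3. The part of free RNA in the mix of other hepatocytes was not tested. Counted by gene, the class with the most UMIs was stellate for 11 collagens, tumour-type hepatocytes for 13, blood for 9, endothelial for 5, mesothelial for 4 and mixed cells for 1. Blood was also the class with the most cells, and its collagen levels were low. Tumour-type hepatocytes held 127954179 of the 211549497 kept UMIs, and some of their 13 collagens were rare. Col2a1 had 3 UMIs in all kept cells, and Col22a1, with 10, had 40% in each of tumour-type hepatocytes and blood.

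**Figure D2:**
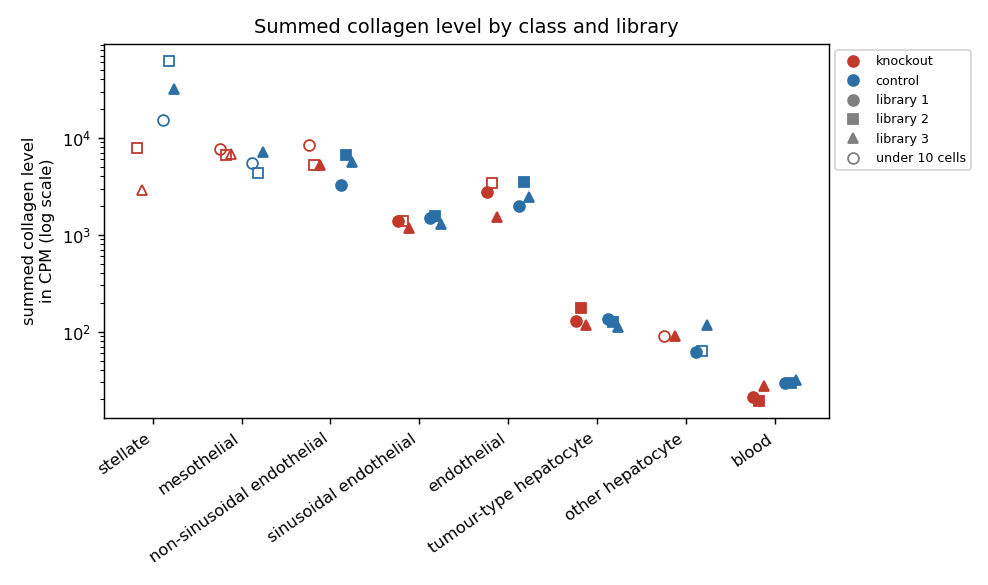
Summed level of all 44 collagens in each class (horizontal) and library (points), in CPM on a log scale; colour gives the genotype, marker shape the library number, and open points have under 10 cells. Stellate points of control libraries lie between 15170 and 62025, those of endothelial cells of all libraries between 1535 and 3520, and tumour-type hepatocytes between 111 and 175.

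Stellate cells carried the fibril-forming collagens. Col1a1 and Col1a2, the chains of type I collagen, and Col3a1, the chain of type III collagen, were the 3 highest collagens of the class, and types V, VI, XII, XIV and XVI were also higher than in endothelial cells. Type IV chains were high in both classes. Col13a1, a transmembrane collagen, was seen in endothelial cells and not in stellate cells.

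Col1a1 stood at 2483, 22534 and 9527 CPM in stellate cells of controls 1 to 3, at 1951 in the single stellate cell of knockout 2, and had no UMI in the 2 of knockout 3. Col1a2 stood at 1836, 12886 and 5832 in the controls, and at 0 and 691 in knockouts 2 and 3, while Col3a1 stood at 3158, 8911 and 4725 in the controls, and at 976 and 230.2 in knockouts 2 and 3. The level of Col4a1 was 1593, 3494 and 3302 CPM in controls 1 to 3, a narrower range than that of Col1a1. A few cells set these values: 1 cell held 69.2% of the stellate collagen UMIs of control 2, and 1 cell of control 3 gave 23.1% of those of all stellate cells, with 2629 collagen UMIs among its 39031. Knockout libraries held 3 stellate cells between them, so genotype was not compared in this class. Stellate cells were 0.262% ± 0.420 of kept cells in knockout and 0.378% ± 0.148 in control libraries (SD, n = 3 each, exact two-sided permutation p = 0.6, smallest possible 0.1). By library the share was 0%, 0.746% and 0.0411% in knockouts 1 to 3 and 0.303%, 0.548% and 0.283% in controls 1 to 3. The knockout mean thus rests mainly on 1 stellate cell among the 134 kept cells of knockout 2.

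Only 1 library had 10 cells of both classes, so stellate and endothelial cells were compared in controls 1 to 3 with the minimum lowered to 3 cells, a choice made after the cell numbers were seen. The edgeR quasi-likelihood test had the library as a block and Benjamini-Hochberg adjustment over all genes at a threshold of 0.05. Of 19 collagens tested, 17 were higher and 1 lower in stellate cells, where 18.6% of all 5867 genes passed, 8.25% as higher and 10.4% as lower. A filter on low counts chose the 19, and several entered through 1 class only. Mean endothelial levels were 0 for Col12a1, 0.311 CPM for Col16a1 and 0.467 for Col6a1. The mean stellate level of Col13a1 was 0. Such collagens could differ in 1 direction only, so these counts are no test of the collagens as a set. All other class comparisons below used the same test and filter, so their counts have the same limit. Comparisons that share a class share its cells.

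Among the fibril-forming collagens, Col1a1 averaged 11515 ± 10172 CPM in stellate cells and 3.37 ± 1.40 in endothelial cells (SD, n = 3 each), which is 11.34 ± 0.52 (SE) on the log2 scale at adjusted p = 1.4e-29. Col1a2 differed by 11.27 ± 0.60 and Col3a1 by 10.19 ± 0.59 on the log2 scale. The type V chains, which join type I fibrils and are known to limit their width, followed with 7.95 for Col5a1, 7.88 for Col5a3 and 4.18 for Col5a2. Col5a2 was also seen in endothelial cells, with 1286 ± 893 CPM in stellate and 74.9 ± 41.1 in endothelial cells.

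Type VI collagen, which forms beaded filaments around cells, was higher in stellate cells by 8.92 for Col6a1, 8.37 for Col6a2 and 5.47 for Col6a3 (log2 fold changes). Of the collagens that coat fibrils, Col14a1 differed by 6.28 and Col16a1 by 7.26. Col12a1 had 91 UMIs in stellate cells and none in 2952704 endothelial UMIs of the same libraries. It was thus at least 261-fold higher, set against a floor of 3 UMIs over the group. This bound holds for controls 1 to 3 only. Over all libraries, endothelial cells held 4.38% of the 160 Col12a1 UMIs of kept cells. Of the 91 UMIs 50 came from control 2, 46 of them from 1 cell, and without control 2 the bound is 119-fold. Of the network and border collagens, Col15a1 differed by 3.54, Col8a1 by 2.55, Col18a1 by 1.96 and Col4a5 by 5.53.

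The main type IV chains differed least of the 19. Col4a1 averaged 2796 ± 1047 CPM in stellate and 1340.4 ± 525 in endothelial cells (log2 fold change 1.12 ± 0.39, adjusted p = 0.0324), and this call is lost without control 1 or without control 3, where adjusted p was 0.383 and 0.108. Col4a2 averaged 1356 ± 538 in stellate and 671 ± 190.2 in endothelial cells and did not pass (1.03 ± 0.44, adjusted p = 0.1). Col13a1 had no UMI among 342932 stellate UMIs and 664 UMIs in endothelial cells of these libraries, which makes it at least 25.7-fold lower in stellate cells, or at least 4.94-fold without control 3, which holds most of the stellate UMIs.

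Genes that make and shape collagen were read beside the collagens. The median log2 fold change of all genes tested was -0.20. Of 17 measured genes of collagen modification and folding, 7 were higher in stellate cells, among them Serpinh1, the collagen chaperone HSP47, by 2.90 and Plod2, a lysyl hydroxylase, by 3.88. Of 11 genes of procollagen cleavage and crosslinking 9 were higher, among them fibronectin (Fn1, 8.97) and the procollagen peptidase Adamts2 (9.01). Of 6 collagen receptors 2 were higher, Mrc2, a receptor that takes up collagen (6.26), and the receptor tyrosine kinase Ddr2 (6.49), and 1 was lower. Of 8 degradation genes 4 were higher, with the protease inhibitors Timp1 (6.24) and Timp2 (5.08) leading. Of 14 genes of TGF-beta signalling and its targets 6 were higher, led by the contractile genes Acta2 (7.94) and Tagln (8.07). Of 10 basement membrane partners only the laminin chain Lamb1 passed (2.02).

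Endothelial cells carried type IV collagen and Col13a1. The main type IV chains Col4a1 and Col4a2, Col13a1 and the short-chain network collagen Col8a1 stood far above blood cells of the same libraries. Col1a1 stood at 362 CPM in endothelial cells of knockout 1 and between 0 and 4.20 in the other 5 libraries. All 91 Col1a1 UMIs of knockout 1 came from 1 cell that also held 32 stellate marker UMIs, and the level is 0 without it.

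Col4a1 stood at 899, 1877 and 672 CPM in endothelial cells of knockouts 1 to 3, and at 877, 1909.8 and 1235 in those of controls 1 to 3. Col4a2 stood at 409.8, 1114 and 365 in knockouts and at 477, 857 and 679 in controls. Libraries numbered 2 were the highest of their group for both chains. In knockout 2, 1 cell held 66 of the 96 Col4a1 UMIs and 45 of the 57 Col4a2 UMIs, and the levels are 939 and 376 without it. Col13a1 stood at 215, 137 and 327 in knockouts and at 235, 175 and 228 in controls, and here libraries numbered 2 were the lowest of their group. Knockout 2 rests on 9 endothelial cells and did not enter the tests.

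Against blood cells of 5 libraries, 13 of 14 collagens tested were higher in endothelial cells and none was lower, where 57.9% of 12230 genes passed and 29.1% were higher. A filter on low counts chose the 14. It left out collagens found mainly in blood cells, such as Col8a2 and Col19a1, with 81.8% and 81.0% of their UMIs there. The absence of lower collagens therefore holds for the 14 only and is no test of the collagens as a set. Col4a1 averaged 1119 ± 486 CPM in endothelial cells and 2.07 ± 1.07 in blood cells (SD, n = 5 each; log2 fold change 8.55 ± 0.36, adjusted p = 4.27e-10). Col4a2 differed by 8.32 ± 0.35, Col13a1 by 8.43 ± 0.42 and Col8a1 by 7.78 ± 0.51. Among the others that passed were Col5a2 (7.25), Col6a3 (6.51), Col14a1 (5.91), Col18a1 (4.78), Col15a1 (4.13) and Col27a1 (3.02). The type IV chains Col4a3 and Col4a4, which in kidney form the network of the glomerular filter, passed at low endothelial levels, 7.46 ± 5.18 and 8.35 ± 8.05 CPM. Col3a1 passed too (4.24, adjusted p = 0.00827), and in knockout 1 all of its 24 UMIs came from 1 cell. Col23a1, a transmembrane collagen, did not pass (0.79, adjusted p = 0.307).

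Basement membrane partners stood beside type IV collagen: all 10 that were measured were higher in endothelial than in blood cells, with nidogen Nid1 at 6.33 and the laminin chain Lama4 at 8.85. The median of all genes tested was -0.01. Of 20 genes of collagen modification 14 were higher and 2 lower (Serpinh1 7.90, Plod1 3.48), and of 10 cleavage and crosslinking genes 7 were higher and 2 lower, among them Sparc, a collagen-binding matricellular protein (9.03), and Pcolce, which enhances propeptide removal (6.50). Of 11 degradation genes 6 were higher and 3 lower (Timp3 8.45, Mmp14 4.40), of 5 receptors 3 were higher and 1 lower (Itga1 3.43, Cd36 3.63), and of 13 TGF-beta genes 7 were higher and 1 lower (Ccn2 8.97, Ccn1 7.87).

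Within the endothelium the collagens split by vessel type. Cells were called sinusoidal (896 cells) by markers such as Stab2 and Clec4g, or non-sinusoidal (114 cells) by markers such as Vwf and Plvap. Type IV collagen and the multiplexins Col15a1 and Col18a1 were higher in non-sinusoidal cells, while Col13a1 was higher in sinusoidal cells. Basement membrane collagens made up 80.3% of the collagen UMIs of non-sinusoidal cells and 65.9% of those of sinusoidal cells, where transmembrane collagens made up 25.9%.

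Col4a1 stood at 2943 CPM in non-sinusoidal cells of knockout 3 and at 1527, 4121 and 3122 in those of controls 1 to 3, against 462 in sinusoidal cells of knockout 3 and 569, 554 and 552 in those of the controls. Col13a1 stood at 57.7 in non-sinusoidal cells of knockout 3 and 52.2, 22.5 and 33.5 in those of controls, against 363 in sinusoidal cells of knockout 3 and 386, 292 and 308 in those of controls. No non-sinusoidal value overlapped a sinusoidal one for either gene. Knockouts 1 and 2, with 3 non-sinusoidal cells each, had Col4a1 at 2037 and 3012 in these cells and at 655 and 665 in sinusoidal cells, and did not enter the test. In each of them 1 cell set the non-sinusoidal value, with 94 of 98 and 66 of 80 Col4a1 UMIs, and without these cells it is 682 and 1899.6.

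Of 7 collagens tested across the 4 libraries with 10 cells of each kind, 5 were higher and 1 lower in non-sinusoidal cells, where 29% of 5794 genes passed, 15.2% as higher and 13.8% as lower. Each of the 6 differed in the same direction in 4 of 4 libraries. Col18a1, whose end fragment is known as endostatin, averaged 315 ± 96.0 CPM in non-sinusoidal and 7.50 ± 6.53 in sinusoidal cells (SD, n = 4 each; log2 fold change 5.62 ± 0.37, adjusted p = 1.61e-11). Col15a1, the other multiplexin, averaged 203 ± 93.2 in non-sinusoidal and 1.48 ± 2.16 in sinusoidal cells (6.27 ± 0.44). Col4a1 averaged 2928 ± 1069 in non-sinusoidal and 534 ± 48.5 in sinusoidal cells (2.37 ± 0.25), and Col4a2 1409 ± 452 in non-sinusoidal and 309 ± 34.9 in sinusoidal cells (2.14 ± 0.24). Col8a1 differed by 5.18 ± 0.71. Col13a1 averaged 41.5 ± 16.4 in non-sinusoidal and 337 ± 44.2 in sinusoidal cells, a log2 fold change of -3.03 ± 0.29 (adjusted p = 7.28e-09). Col5a2 did not pass (-0.63 ± 0.45, adjusted p = 0.32). In the libraries tested, Acta2 had 65 UMIs (72.5 CPM) in non-sinusoidal cells, 7 of them in control 1 and 58 in control 3, and none in sinusoidal cells. The part of mural cells captured with non-sinusoidal cells was not tested. The 3 non-sinusoidal cells of knockout 1, outside the test, held 536 Acta2 UMIs.

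**Figure D3:**
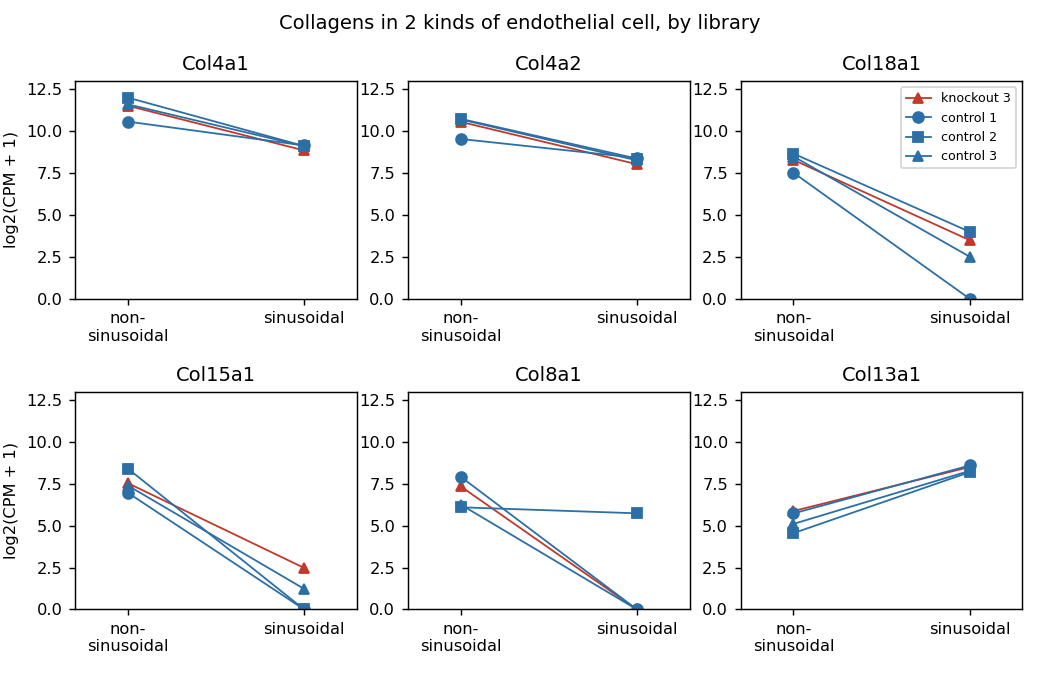
Levels of 6 collagens (panels) in non-sinusoidal (left) and sinusoidal (right) endothelial cells of knockout 3 and controls 1 to 3, each library joined by a line, on a log2(CPM + 1) scale. Lines of Col4a1, Col4a2, Col15a1, Col18a1 and Col8a1 run down and those of Col13a1 run up in the 4 libraries tested, and Col8a1 of control 2 is close to flat (67.6 in non-sinusoidal and 52.4 in sinusoidal cells).

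Of 10 basement membrane partners 6 were higher in non-sinusoidal cells and none lower, with nidogen Nid2 at 5.82, and Lamb1 also passed. The median of all genes tested was -0.02. Of 13 modification genes 4 were higher and 1 lower, with Serpinh1 at 2.03 and the prolyl isomerase Fkbp10 at 4.93. Of 4 cleavage and crosslinking genes 1 was higher (Sparc, 2.06) and 1 lower (the transglutaminase Tgm2, -0.76). Of 4 receptors 2 were higher and 1 lower, and the integrin chains Itga2 and Itgb1, which pair in a collagen receptor, were both higher (3.88 and 1.11). Of 5 degradation genes 2 were higher and 1 lower, with the membrane-type protease Mmp15 at 5.18 and the lysosomal protease Ctsl at -1.65. Of 11 TGF-beta genes 3 were higher and 2 lower, with Ccn1 at 3.82.

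Cells that held Col4a1 often held Col4a2. Across endothelial cells the correlation of log UMIs per 10000 was 0.49 and 0.35 in knockouts 1 and 3 and 0.40, 0.69 and 0.54 in controls 1 to 3 (50 and 408 knockout cells, 213, 59 and 453 control cells). For Col15a1 with Col18a1 it was 0.41 and 0.45 in knockouts 1 and 3 and 0.24, 0.51 and 0.37 in controls, and for Col4a1 with Col13a1 it lay between -0.15 and 0.06. These are descriptions over cells that share a library and differ in depth.

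Tumour-type hepatocytes held most of the Col18a1 and Col27a1 UMIs. Col18a1, which hepatocytes are known to make, was the collagen with the most UMIs of all (11599, 88.6% of them in this class), and Col27a1, a fibril-forming collagen best known from cartilage, had 89.4% of its 3182 UMIs there. Both were seen in every library, with knockout 2 the highest. Tumour-type hepatocytes also held 127954179 of the 211549497 kept UMIs, so their shares of UMIs are not levels. Endothelial cells, without knockout 2, had Col27a1 at 20.03 ± 5.96 CPM and Col18a1 at 100.99 ± 53.1 (SD, n = 5). Tumour-type hepatocytes had them at 26.6 ± 7.76 and 88.3 ± 20.5 (SD, n = 6). The difference between these 2 classes was not tested. Col25a1, a transmembrane collagen known from neurons, was high in some libraries only.

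Col18a1 stood at 82.1, 129.8 and 83.7 CPM in tumour-type hepatocytes of knockouts and at 75.9, 80.1 and 78.3 in those of controls. Col27a1 stood at 22.1, 41.2 and 21.5 in knockouts and at 24.5, 29.0 and 21.0 in controls, and knockout 2 rests on 10 cells. Col25a1 stood at 8.41, 0 and 3.12 in knockouts and at 18.4, 0 and 0.616 in controls, and its 117 cells with a UMI were few beside the 1863 of Col18a1 and the 1230 of Col27a1 over all classes. Col5a2 stood at 8.48, 0 and 0.243 in knockouts and at 5.03, 0 and 0.321 in controls, and 1 cell held 73.2% of its 123 UMIs in knockout 1. The near-empty droplets of the libraries numbered 3, those with at most 100 UMIs, held Col18a1 at 77.9 in knockout 3 and 42.5 in control 3, near the tumour level in knockout 3 and below it in control 3, while blood cells of these libraries stood at 3.06 and 4.16.

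Against blood cells of 6 libraries, 6 of 19 collagens tested were higher in tumour-type hepatocytes and 9 lower, where 80.7% of 17154 genes passed, 38.7% as higher and 41.9% as lower. Col18a1 averaged 88.3 ± 20.5 CPM in tumour-type hepatocytes and 1.97 ± 1.59 in blood cells (SD, n = 6 each; log2 fold change 5.23 ± 0.31, adjusted p = 5.86e-08). Col27a1 averaged 26.6 ± 7.76 in tumour-type hepatocytes and 1.42 ± 1.19 in blood cells (3.69 ± 0.26, adjusted p = 2.29e-07). Both were higher in 6 of 6 libraries. The other higher ones were Col16a1 (4.60), Col25a1 (3.48), Col5a2 (3.00) and Col5a3 (2.59), each below 6 CPM in the mean over libraries and higher in 3 to 5 libraries.

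The collagens lower in tumour-type hepatocytes than in blood cells were Col19a1 (-3.91), Col8a2 (-3.85), Col1a1 (-2.59), Col9a3 (-2.45), Col23a1 (-2.45), Col20a1 (-2.11), Col13a1 (-1.81), Col11a2 (-1.79) and Col15a1 (-1.48). All 9 had a mean over libraries below 5 CPM in both classes. For Col1a1, all 24 blood UMIs of control 1 came from 1 cell, and without control 1 its log2 fold change is -2.01 (adjusted p = 0.0276). Median log2 fold change was -1.24 over the 19 collagens and -0.10 over all genes, and scaling by DESeq2 size factors in place of TMM moved the median of all genes to -0.33, a shift of -0.23. The calls of Col11a2 and Col13a1 are lost under some alternatives (adjusted p up to 0.0746).

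Against the other hepatocytes, in knockout 3 and controls 1 and 3, 7 of 11 collagens tested passed, where 49.6% of 14589 genes did, 27.8% as higher and 21.8% as lower. The depth gap between these classes, given above, was not removed, and free RNA was not subtracted. The split itself depends on depth, because it counts distinct tumour-type markers. Tumour-type cells with few UMIs could thus lie among the other hepatocytes, which was not tested. Col27a1 was the only one higher in tumour-type hepatocytes: it stood at 21.5 in knockout 3 and 24.5 and 21.0 in controls 1 and 3, against 3.25 in other hepatocytes of knockout 3 and 4.43 and 6.36 in those of the controls (log2 fold change 1.92 ± 0.47, adjusted p = 0.000182). Without knockout 3 this call is lost (1.59, adjusted p = 0.0816). Col18a1 averaged 79.3 ± 3.98 in tumour-type and 47.4 ± 29.6 in other hepatocytes and did not pass (0.40 ± 0.25, adjusted p = 0.165), although it was higher in 3 of 3 libraries. The 6 lower ones were Col13a1 (-5.06), Col1a2 (-4.13), Col4a5 (-3.23), Col4a2 (-2.80), Col15a1 (-2.63) and Col5a3 (-2.47), all with a mean below 10 CPM in other hepatocytes. These calls rest on few UMIs: over all collagens, other hepatocytes held 84 in knockout 3 and 14 and 146 in controls 1 and 3. In control 3, 8 of the 10 Col13a1 UMIs of other hepatocytes came from 1 cell with 111 endothelial marker UMIs. The number of collagens passing fell to 1 without control 3 and to 2 without knockout 3.

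The collagen machinery differed by list. Against blood cells, 9 of 19 modification genes were higher in tumour-type hepatocytes and 5 lower, with the prolyl hydroxylase subunits P4ha2 at 3.38 and P4hb at 1.46. Of 12 cleavage and crosslinking genes 8 were higher and 2 lower (Pcolce2 3.84, Adamts14 -3.99), and of 10 basement membrane partners 8 were higher and none lower (Papln 4.04, Nid2 3.43). Of 7 receptors none was higher and 4 were lower, among them Lair1, an inhibitory receptor of leukocytes (-7.85), and Itga2 (-6.22). Of 11 degradation genes 3 were higher and 5 lower, with the neutrophil proteases Mmp9 (-8.58) and Mmp8 (-8.09, itself a neutrophil marker used in the calls of blood cell kinds) lowest. Of 13 TGF-beta genes 1 was higher and 8 lower (Tgfb1 -7.09, Smad7 -2.92).

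Against other hepatocytes, where the median of all genes was 0.33 (0.17 with size factors), 9 of 18 modification genes were higher and 1 lower, with the collagen galactosyltransferase Colgalt1 at 2.09 and the export factor Mia2 at 1.06. Of 10 basement membrane partners 6 were higher and 1 lower (Lamc1 2.97; Papln had no UMI in other hepatocytes). Of 11 cleavage and crosslinking genes 1 was higher and 2 lower, Fn1 at -1.33 and Sparc at -3.02. Of 10 TGF-beta genes 2 were higher and 5 lower (Smad3 1.88, Tgfb1 -4.22), of 7 degradation genes 1 was higher and 2 lower (Ctsb 1.22, Mmp15 -1.70), and of 8 receptors none was higher and 1 lower (Itga2 -3.35).

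Blood cells held few collagen molecules. Their summed level was 21.2, 19.2 and 27.2 CPM in knockouts and 29.8, 29.4 and 31.5 in controls, and no knockout value reached a control value. This order rests on few cells: 1 cell of control 1 held 29 of its 196 collagen UMIs, among them all 24 of its Col1a1 UMIs, and control 1 stands at 25.4 without it, below the 27.2 of knockout 3. In control 2, 1 cell held 4 of 28 collagen UMIs. The 3 collagens with the highest level were Col18a1 (3.09), Col4a1 (2.56) and Col27a1 (2.17). Col4a1 stood at 13.5 in the near-empty droplets of knockout 3 and 46.9 in those of control 3, and at 2.30 and 2.67 in blood cells of these libraries.

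Knockout and control libraries did not differ in any collagen tested at the adjusted threshold. In endothelial cells the 2 type IV chains were lower in the mean of the knockout libraries that entered the test, in tumour-type hepatocytes Col18a1 was slightly higher, and in blood cells the summed level was lower, and none of these passed. Stellate cells and other hepatocytes had too few libraries with 10 cells in the knockout group for a test. Ncr1-expressing cells, where the deletion is directed, are part of the blood class.

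In endothelial cells of 2 knockout and 3 control libraries, 0 of 10 collagens passed, as did 0 (0%) of 8118 genes with edgeR (226 genes at an unadjusted p under 0.05, none of them a collagen, and 0 collagens by DESeq2). The 10 collagens had a median log2 fold change of -0.54, against 0.01 over all genes, and 7 were negative. Col4a2 had a log2 fold change of -0.80 ± 0.39 and Col4a1 of -0.79 ± 0.44 (unadjusted p = 0.0619 and 0.0949, adjusted p = 1 for both). Col4a2 values of the knockouts tested, 409.8 and 365, lay below all control values, while the 1114 of knockout 2, with 9 cells, lay above them and is 376 without its cell with the most collagen UMIs. With that library, at a minimum of 3 cells, the changes were -0.21 ± 0.43 for Col4a2 and -0.30 ± 0.43 for Col4a1. The share of non-sinusoidal cells moved with them: it was 6.00%, 33.3% and 3.68% of endothelial cells in knockouts 1 to 3 and 15.02%, 23.7% and 10.4% in controls, a difference of -11.5 percentage points in the 5 libraries tested (exact two-sided permutation p = 0.2, the smallest possible) and -2.04 in all 6 (p = 0.9). Its part in the type IV difference was not tested, and within sinusoidal cells Col4a1 stood at 655, 665 and 462 in knockouts and at 569, 554 and 552 in controls, and Col4a2 at 322, 333 and 261 in knockouts and at 339, 329.5 and 306 in controls.

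**Figure D4:**
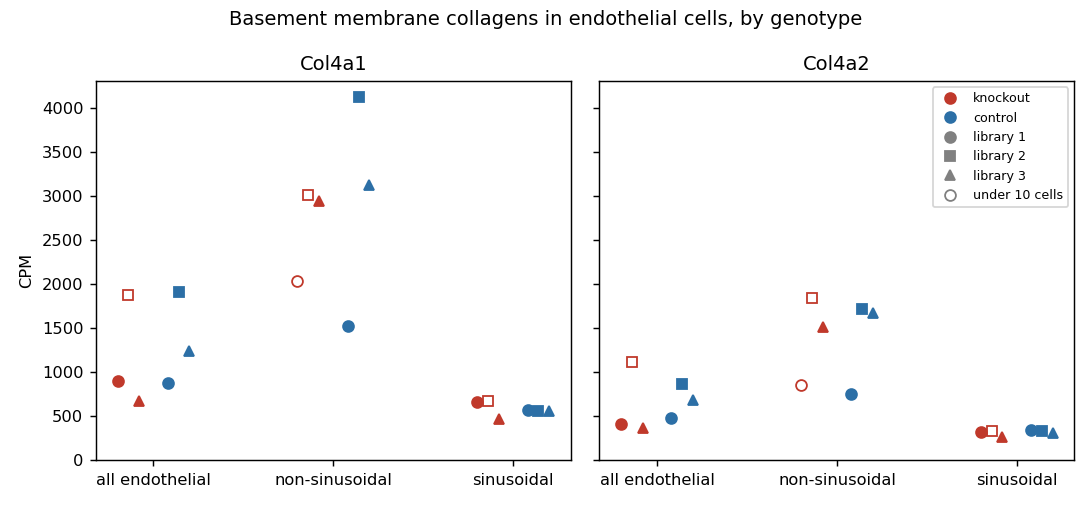
Col4a1 (left) and Col4a2 (right) levels in all endothelial, non-sinusoidal and sinusoidal cells, in CPM from 0; each point is a library, with knockout left of control within each kind, and open points have under 10 cells. Among sinusoidal cells Col4a1 points of knockouts (462 to 665) lie around those of controls (552 to 569).

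Other endothelial collagens spread as widely. Col8a1 had a log2 fold change of -1.24 ± 0.65, Col15a1 of -1.12 ± 0.58, Col18a1 of -0.39 ± 0.55, Col13a1 of 0.36 ± 0.34 and Col14a1 of 1.15 ± 0.96, with adjusted p = 1 throughout. One cell of knockout 1 weighed on several: it had 42259 UMIs, 32 stellate and 175 endothelial marker UMIs, and held 401 of the 686 collagen UMIs of that library's endothelial cells. All 91 Col1a1, 41 Col1a2 and 24 Col3a1 UMIs of knockout 1 came from it. Without it, the summed collagen level of knockout 1 is 1363 in place of 2730, Col4a1 is 631 in place of 899 and Col18a1 23.9 in place of 143.

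In tumour-type hepatocytes 0 of 9 collagens passed among 13846 genes, of which 0 (0%) passed with edgeR (287 genes at an unadjusted p under 0.05) and 0 collagens with DESeq2. Col18a1 had a log2 fold change of 0.32 ± 0.21 and its 3 knockout values lay above the 3 control values. Col23a1 stood at 0.276, 0 and 0.0664 CPM in knockouts and at 0.872, 1.70 and 0.482 in controls. These rest on 4, 0 and 3 UMIs in knockouts and 26, 1 and 18 in controls (log2 fold change -2.31 ± 0.79, unadjusted p = 0.0155, adjusted p = 1). Col4a2 had -1.75 ± 1.00 and Col27a1 0.10 ± 0.26, and the median over the 9 was 0.10, against -0.01 over all genes.

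In blood cells 0 of 7 collagens passed among 13949 genes, of which 0 (0%) passed with edgeR (237 genes at an unadjusted p under 0.05) and 0 collagens with DESeq2. Col8a2, a chain of the type VIII network, had the largest of the 7 changes in size, -1.42 ± 0.76, and the median was 0.02, against -0.02 over all genes. In these 3 classes none of the genes in the lists of modification, cleavage, receptors, degradation, basement membrane partners and TGF-beta signalling passed either. The smallest p in the endothelial lists was that of Itga2 (log2 fold change -3.02, adjusted p = 0.621), followed by Nid2 (-1.70) and Acta2 (5.84), both with adjusted p = 0.736. The Acta2 value rests on the 536 UMIs in 3 cells of knockout 1, while knockout 3 had none. In tumour-type hepatocytes Ccn1 (-4.18) and Sparc (-3.81) and in blood cells Ctsl (1.26) and Mmp14 (1.70) had small unadjusted p and did not pass.

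**Figure D5:**
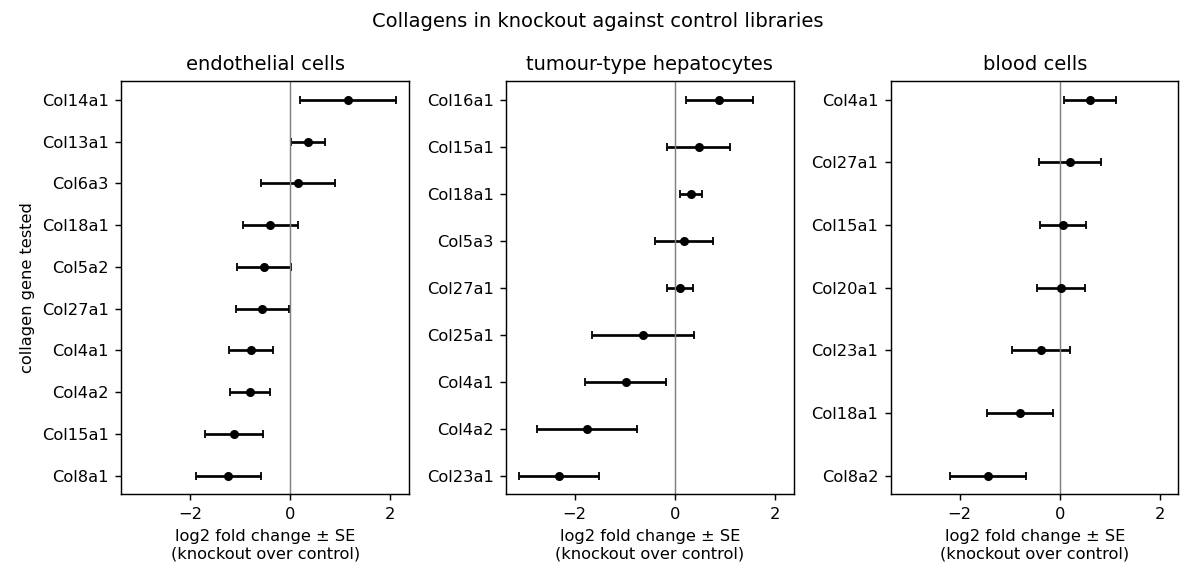
Log2 fold change, knockout over control, with its SE for each collagen tested in endothelial cells, tumour-type hepatocytes and blood cells (panels). Endothelial Col4a1 (-0.79) and Col4a2 (-0.80) lie left of 0 and tumour Col18a1 (0.32) right of it, and no collagen passed at an adjusted p of 0.05.

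Summed over all collagens, endothelial cells averaged 2132 ± 845 CPM in knockout (n = 2) and 2656 ± 781 in control libraries (n = 3), a difference of -523 (exact two-sided permutation p = 0.6, adjusted p = 0.6 over the 3 classes). Tumour-type hepatocytes averaged 140.0 ± 31.1 in knockout and 124 ± 11.7 in control libraries (n = 3 each), a difference of 16.4 (exact p = 0.5, adjusted p = 0.6). Blood cells averaged 22.5 ± 4.21 in knockout and 30.2 ± 1.10 in control libraries (n = 3 each), a difference of -7.72 (exact p = 0.1, adjusted p = 0.3). The smallest p these designs allow is 0.2 with 2 against 3 libraries and 0.1 with 3 against 3, so the blood difference could not have passed. Without the cell with the most collagen UMIs of each library, an alternative chosen after seeing the data, the difference is -1072 in endothelial cells (exact p = 0.2), 19.7 in tumour-type hepatocytes (exact p = 0.5) and -6.29 in blood cells (exact p = 0.3).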

How the data were processed

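The authors deposited unnormalized UMI counts, barcode by gene, for 6 mRNA libraries, made with Cell Ranger 7.0.1 (libraries numbered 1 and 2) and 9.0.1 (libraries numbered 3), per the file headers. The submitters' processing notes name Cell Ranger 9.0.1 and GRCm39. The deposited matrices of libraries 1 and 2 hold called cells, and those of libraries 3 hold all barcodes. Hashtag counts in libraries 3 stayed out of all totals.

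Cells needed 500 UMIs or more, 300 genes or more, and a mitochondrial share of 20% or less. For libraries 3, barcodes up to 5000 UMIs were tested against near-empty droplets (100 UMIs or fewer) with 10000 simulated profiles, and 272 that did not differ at a false discovery rate of 0.001 were dropped. Scrublet (scanpy 1.11.5) called 1 to 4 doublets per library by its automatic threshold, too few to have worked, so top-scoring cells were dropped instead, 0.8% for every 1000 cells, 1124 in all. A cell entered a class with at least 3 distinct markers and 4 marker UMIs, and was called mixed where the runner-up class reached 0.2 of the best. Tumour-type hepatocytes also needed at least 3 distinct hepatocyte markers. Other hepatocytes needed hepatocyte marker UMIs of at least 1% of their UMIs and fewer than 3 distinct tumour-type markers. These thresholds were set after the data were seen. Free RNA was not subtracted, and doublets remain.

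CPM values were computed here from the deposited counts. UMIs were summed per library and class with at least 10 cells and tested with the edgeR 4.0.16 quasi-likelihood test in R 4.3.3 (two-sided, with TMM scaling after filterByExpr, and p-values adjusted by Benjamini-Hochberg over all genes tested, threshold 0.05). DESeq2 1.42.0 was an alternative. SEs were taken from the fold change and the F statistic of each gene. Class comparisons had the library as a block. Summed levels were compared by exact permutation tests over libraries (scipy 1.17.1). The pipeline was tested on simulated data. Same-numbered knockout and control libraries deviated together from their group means: the correlations were 0.174, 0.166 and 0.212 in tumour-type hepatocytes and 0.265, 0.315 and 0.368 in blood cells. Differently numbered libraries gave -0.158 to 0.076 in tumour-type hepatocytes and -0.303 to 0.15 in blood cells. All the negative ones involved a library numbered 2, and libraries 1 and 3 gave positive ones with each other. The numbers were thus taken as pairs in an alternative fit.

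The collagens, the 6 lists of pathway genes and the cell markers were chosen with earlier results of these data known. Named genes were all collagens that passed in any comparison, the 12 with the most UMIs, the 3 highest per class, and per list the 2 members with the smallest p. Floors are 3 counts and cover counting error only. Alternatives were another scaling, no filter, DESeq2, pairing, a stricter class call with 8 marker UMIs, no removal by doublet score, other cell minimums and leaving out libraries.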

Additional observations from a re-analysis of the deposited data

Results flagged for a closer look

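Collagen UMIs also appeared in cells outside the comparisons. Mesothelial-type cells (40 cells, with Msln at 1153 CPM) had a summed collagen level of 6624 CPM over all libraries, above the 2258 of endothelial cells. Cells with markers of more than 1 class had 761.1, cholangiocyte-type cells (20 cells) 360.1 and cells with no class 115.8. None of these entered a test.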

How the results depend on the processing

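No collagen passed between knockout and control libraries in tumour-type hepatocytes or blood cells under any alternative run. In endothelial cells 3 passed without a filter on low counts and 3 without knockout 3 (Col1a1, Col1a2 and Col3a1, higher in knockout and resting on 1 cell of knockout 1). With the replicate number as a block, 1 passed (Col1a1), and the block changed no other call. The paired difference of the endothelial total was -91.3 over 2 pairs, against -523.

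Leaving out 1 library at a time gave 0 to 3 endothelial collagens between genotypes, and endothelial totals differed by -1121 to 73.8, the positive value without knockout 3. Tumour totals differed by -1.22 (without knockout 2) to 28.3 and blood totals by -10.1 to -6.04. Counts of collagens that passed were 12 to 19 for stellate against endothelial cells, 12 to 17 for endothelial against blood, 11 to 17 for tumour-type hepatocytes against blood, 6 to 8 for non-sinusoidal against sinusoidal cells, and 1 (without control 3) to 6 for tumour-type against other hepatocytes, with 2 without knockout 3. Without a filter 21 passed between endothelial and blood cells.

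Single collagens that did not pass changed sign, as log2 fold changes, and the cause was not tested. In endothelial cells between genotypes Col5a2 was 0.048 with the block. There, leaving out 1 library gave -1.20 (without knockout 1) to 2.31 for Col14a1, -0.052 (without knockout 3) to 0.62 for Col13a1 and -1.53 to 0.39 (without knockout 3) for Col18a1. In tumour-type hepatocytes Col25a1 was 0.41 with the block, and -1.33 to 3.02 (without control 1) leaving out 1 library. Col27a1 there was -0.084 (without knockout 2) to 0.33, and -0.011 without both libraries numbered 2. In blood Col15a1 was -0.11 with DESeq2 and with the stricter call, and -0.10 to 0.15 leaving out 1 library, with -0.084 without control 3 and -0.0085 without knockout 3. Col27a1 there was -0.31 (without knockout 3) to 0.70. Between tumour-type and other hepatocytes, Col25a1 was -0.48 (without control 1) to 0.87.

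Of all recomputed values, 793 kept direction and side of the threshold or count, 17 changed sign, 15 lost a call, 4 gained one and 6 counts moved by over 1.5 times. In stellate against endothelial cells, Col18a1 and Col8a1 also lost their calls without control 3 (adjusted p = 0.328 and 0.0927). Depth limits the stellate class, with 40 cells and a floor of 8.75 CPM over controls 1 to 3.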

Other observations

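Mesothelial-type cells, which line the liver surface, held a collagen mix of their own. Col3a1 led with 1496 CPM, followed by Col1a1 (1040.3), Col6a1 (638), Col5a2 (624), Col1a2 (579) and Col14a1 (346). The type IV chains that are rare elsewhere were seen there too, with Col4a5 at 222, Col4a6 at 174 and Col4a4 at 143, beside Col4a1 at 312. Their summed collagen level was 7617, 6717 and 6766 CPM in knockouts 1 to 3 and 5491, 4309 and 7075 in controls 1 to 3, and all of these libraries but control 3 had under 10 such cells. These cells were called by the same marker thresholds as other classes. Where a cell also qualified as stellate or cholangiocyte, at least 5 distinct mesothelial markers set that call aside.

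Within blood, Col8a2, a chain of the type VIII network, was found mainly in T or NK cells, which held 117 of its 139 blood UMIs (3.81 CPM), while 3854 B cells had none among 12448933 UMIs. It stood at 3.55, 9.05 and 1.95 CPM in T or NK cells of knockouts and at 8.70, 16.998 and 3.25 in those of controls, with a single UMI behind the value of knockout 2, and at 0.22 and 0.34 in near-empty droplets of knockout 3 and control 3. T or NK cells also held 53 of the 68 blood UMIs of Col19a1. In dendritic cells Col23a1 stood at 6.15 CPM.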
